A study of Mus musculus with 6 samples.

Results

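The metalloproteinases of the ADAM, ADAMTS and matrix metalloproteinase (MMP) families, the ADAMTS-like proteins and the tissue inhibitors of metalloproteinases (TIMPs) were read in sorted neonatal bladder cells. The set was every probe set whose only gene symbol in the platform annotation began with Adam and a digit, with Adamts or with Mmp and a digit, or was Timp1, Timp2, Timp3 or Timp4. This gave 124 of 45037 probe sets, which stood for 70 of 18193 genes. MMPs are zinc-dependent endopeptidases, made as inactive proenzymes, that are secreted or held at the cell surface and cut matrix proteins. ADAMs are membrane proteins, several of which release the outer part of other membrane proteins, and ADAMTS enzymes are secreted and cut proteoglycans and procollagens. TIMPs bind and block MMPs, and Timp3 also blocks several ADAM and ADAMTS enzymes. In muscle and its stroma these genes shape the collagen and proteoglycan matrix between cells.

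Bladders of male mice of the FVB/N strain, taken on postnatal day 2, gave both populations, and the mice carried the transgenes SMGA/EGFP and SMAA/EYFP, known as reporters of smooth muscle gamma actin and smooth muscle alpha actin. They came from matings of SMAA/EYFP with SMGA/EGFP mice. Cells with EGFP and without EYFP (EGFP+EYFP-, called single-positive here, 3 arrays) were compared with EGFP+EYFP+ cells (called double-positive, 3 arrays). The labels place both in the detrusor, the muscle of the bladder wall, and the populations are defined by these reporters alone. Tissue was digested with enzymes and sorted by fluorescence, samples were not pooled, and RNA was amplified in 2 rounds before hybridisation to Affymetrix mouse arrays. Separate animals are not stated for the arrays within a group. The p-values therefore cover the array-to-array spread only, and that spread may be technical.

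Array medians lay between 147 and 199.8 signal units, and the number of arrays limits the precision. Of the actin genes behind the reporters, Actg2 signal was 60131 ± 8405 in single-positive and 10595 ± 3281 in double-positive cells (SD, n = 3 each), although both were sorted as EGFP-positive. Acta2 signal was 62346 ± 9277 and 59801 ± 11165 (SD, n = 3 each), so that Acta2 on this probe set did not follow the EYFP sort. Summed over 8 smooth muscle markers, signal ran between 234941 and 304155 in single-positive and between 75397 and 109694 in double-positive arrays. Of the 8, 7 were called higher, where the share over all genes was 4.38%.

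Signals were compared as log2(signal + 25.042), and each gene stood by its brightest probe set. A gene was tested when its mean log2 value over the 6 arrays exceeded 6.82, which 40% of the probe sets did not reach. Differences are single-positive minus double-positive, so that a positive value means higher in single-positive cells. Of the 70 genes, 48 were tested and all 48 had both group means above that level. The other 22 were 14 ADAM, 2 ADAMTS and 6 MMP genes, with signals of at most 269.31 on any array and a median of 20.9. They include Adam2, Adam3, Adam7, Adam18, Adam24 and Adam34, of a class of ADAMs mostly known from testis. The collagenases Mmp8, Mmp13, Mmp1a and Mmp1b, the macrophage elastase Mmp12 and the enamel protease Mmp20 are also among them.

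Of the 48 tested genes, 3 rose and 4 fell in single-positive cells by limma at an adjusted p of 0.05, and 41 did not pass. Mmp9, Mmp17 and Adamtsl3 were higher in single-positive cells, and Mmp10, Adamts3, Adamts7 and Adamts9 were lower. Over all 13464 genes tested the share called was 6.37%, with 4.38% higher and 1.98% lower. The median difference of the 48 was 0.11, against -0.02 over all genes. In 15 of the 48 the arrays of one population all lay on one side of the other, where the share over all genes was 22.4%. Single-positive arrays were above in 9 of them and below in 6, where the shares over all genes were 11.9% and 10.5%. At an unadjusted p of 0.05 there were 17 of the 48, where the share over all genes was 17.6%. With single-positive array 1 left out, 2 genes were called instead of 7, and 4 were called with array 2 or 3 of the single-positive cells, or array 1 of the double-positive cells, left out. In these fits, in the same order, the share called over all genes was 4.18%, 3.6%, 3.46% and 4.74%, below the 6.37% with all arrays. With median centring 1 was higher and 3 were lower, where the share called over all genes was 5.16%. Fewer cells of a type and less RNA per cell cannot be told apart in such sorted populations.

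**Figure D1:**
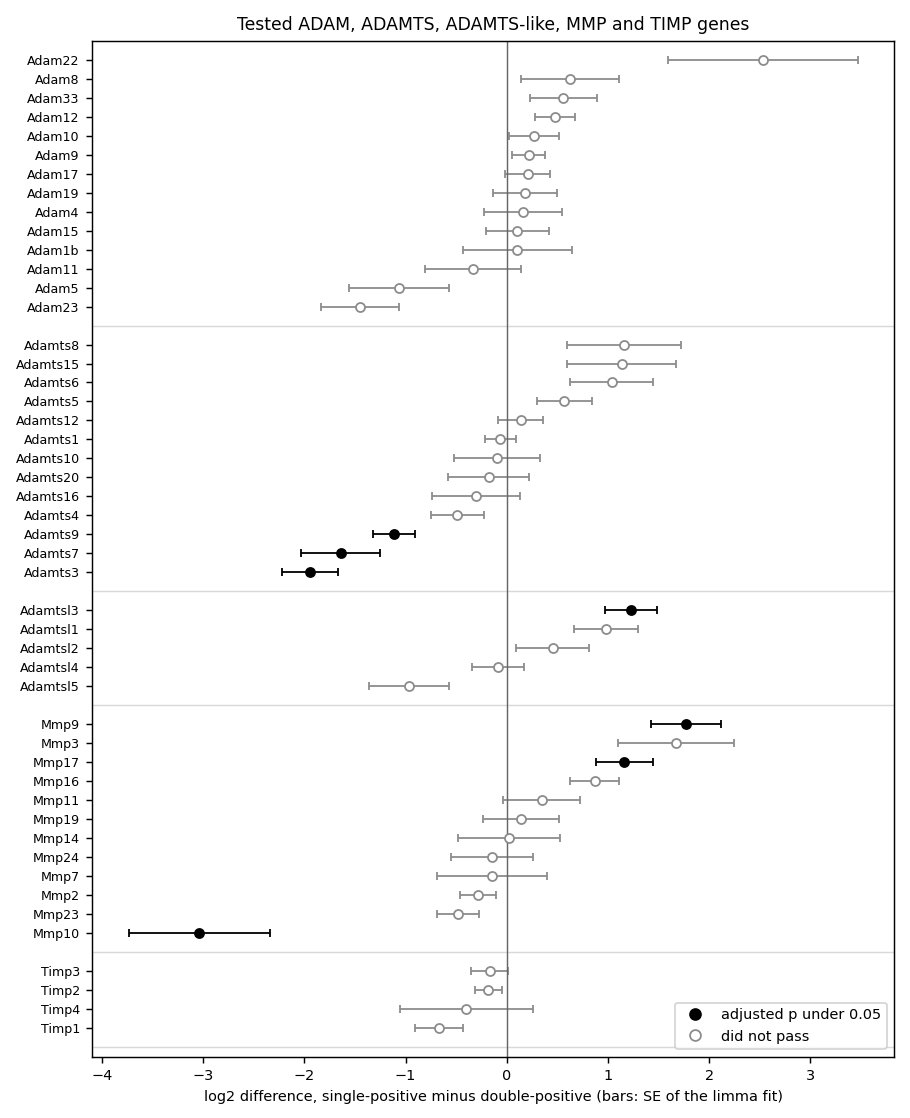
Log2 difference (horizontal axis, single-positive minus double-positive, log2 units) of the 48 tested genes, 1 row a gene, ordered within the ADAM, ADAMTS, ADAMTS-like, MMP and TIMP families; points are estimates and bars the standard error of the limma fit, with n = 3 arrays a group. The 7 filled points passed, from Mmp10 at -3.04 to Mmp9 at 1.77, and all 4 TIMP points lie left of 0.

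Among the gelatinases, which cut denatured collagen and basement membrane collagen, Mmp9 differed between the populations and Mmp2 did not pass. Mmp9 signal was 3186, 2156 and 1519 in single-positive cells, against 531, 615 and 741 in double-positive cells. All single-positive arrays were above all double-positive arrays. The difference was 1.77 (SE 0.35, limma adjusted p = 0.0133), with means 3.64-fold apart. The second Mmp9 probe set gave 1676, 724 and 1046 in single-positive cells, against 360, 239.5 and 300.5 in double-positive cells, a difference of 1.79 that passed over all probe sets as well (limma adjusted p = 0.0491). The Mmp9 call was lost when single-positive array 1 (adjusted p = 0.0652) or 2 (adjusted p = 0.0589) was left out. Mmp2 signal was 44727, 44792 and 34548 in single-positive cells, against 54470, 58684 and 38935 in double-positive cells, so the groups overlapped. Its difference was -0.28 (SE 0.18, limma adjusted p = 0.492). This probe set ranked between 104 and 324 on the arrays, near the top of the range.

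The stromelysins Mmp3 and Mmp10, secreted enzymes with broad action on matrix proteins, had differences of opposite sign. Mmp10 signal was 102.65, 273.23 and 24.97 in single-positive cells, against 2288, 539 and 785 in double-positive cells. All double-positive arrays were above all single-positive arrays, although the values spread widely within each group. The difference was -3.04 (SE 0.70, limma adjusted p = 0.0273). It missed the threshold when array 1 (adjusted p = 0.0712) or 3 (adjusted p = 0.0969) of the single-positive cells or array 1 of the double-positive cells (adjusted p = 0.0803) was left out, with no variance trend (adjusted p = 0.0691), with no filter (adjusted p = 0.0552) and over all probe sets (adjusted p = 0.0613). Mmp3 signal was 552, 509 and 129 in single-positive cells, against 132, 47.4 and 104 in double-positive cells. The groups overlapped through single-positive array 3, and the difference of 1.67 (SE 0.57, limma adjusted p = 0.142) did not pass. Without that array it was 2.29 and passed (adjusted p = 0.0447). The matrilysin Mmp7 had a difference of -0.15 (SE 0.55) and overlapping groups.

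Mmp3, Mmp7 and Mmp10 lie in a row of MMP genes on mouse chromosome 9 with Mmp13, Mmp12, Mmp1b, Mmp1a, Mmp8 and Mmp20, by the RefSeq gene order of assembly GRCm38.p6. Of these 9 genes, 3 were tested and 6 were below the filter level. The letters TGAGTCA, a motif of the AP-1 transcription factors known from MMP promoters, were searched on both strands in the 250 bases before each RefSeq gene start. A match was present for 7 of the 9 genes, and in 4.46% of all 32851 promoters of the table. Among the 41 genes of the whole set with a promoter in the table, Adam19 was the only other gene with a match. The AP-1 matches are shown because most of these neighbours hold one, each with 10 bases on either side, 5' to 3' on the gene's own strand. Capitals mark TGAGTCA or its reverse complement TGACTCA (RefSeq, GRCm38.p6).
Mmp13 (chr9:7272469-7272495, plus strand): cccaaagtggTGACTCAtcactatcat
Mmp12 (chr9:7347320-7347346, plus strand): acatcaacagTGAGTCAgatagaggat
Mmp1b (chr9:7388103-7388129, minus strand): ttacaaagccTGAGTCAtatagcctct
Mmp3 (chr9:7445766-7445792, plus strand): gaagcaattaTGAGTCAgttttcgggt
Mmp1a (chr9:7464058-7464084, plus strand): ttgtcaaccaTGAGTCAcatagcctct
Mmp10 (chr9:7502269-7502295, plus strand): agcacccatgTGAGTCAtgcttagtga
Mmp7 (chr9:7692017-7692043, plus strand): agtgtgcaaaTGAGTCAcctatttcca

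The 7 stretches carry the same motif between 93 and 29 bases before the start, in genes that were below the filter, overlapped between the groups, or, for Mmp10 alone, passed. The 250 bases before the starts of Mmp10 and Mmp3 are printed in full because these tested neighbours had differences of opposite sign. Capitals mark TGAGTCA and the TATA motif TATAAA, which was also searched on both strands and does not overlap it.
Mmp10 (chr9:7502092-7502341, plus strand): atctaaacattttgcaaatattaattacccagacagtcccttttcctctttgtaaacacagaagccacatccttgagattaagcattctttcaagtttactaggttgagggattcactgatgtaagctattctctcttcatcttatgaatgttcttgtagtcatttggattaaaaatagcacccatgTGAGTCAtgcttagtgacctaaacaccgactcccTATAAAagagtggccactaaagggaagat
Mmp3 (chr9:7445572-7445821, plus strand): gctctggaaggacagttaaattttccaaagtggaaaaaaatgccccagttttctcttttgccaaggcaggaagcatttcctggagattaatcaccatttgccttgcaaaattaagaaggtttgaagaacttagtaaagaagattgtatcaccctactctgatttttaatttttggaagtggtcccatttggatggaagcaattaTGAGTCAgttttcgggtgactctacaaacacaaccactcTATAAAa

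In Mmp10 the AP-1 letters begin 63 bases and the TATA letters 29 bases before the annotated start. In Mmp3 they begin 46 and 7 bases before it. TATAAA was also present, on either strand, in 7 of the 9 neighbours, and in 12.4% of all promoters in the table. A match is a description of these windows and was not tested as a site.

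Membrane-type MMPs, which are anchored at the cell surface and act there on matrix and on other proenzymes, had 3 positive differences and 1 call in 4 tested genes. After quantile normalization or median centring, 2 of the 4 differences were positive and 2 negative. Over all genes tested, 6.37% were called. Mmp17, held in the membrane by a lipid anchor, had signals of 2691, 2140 and 2397 in single-positive cells, against 941, 1284 and 984 in double-positive cells. The groups stood clearly apart, and the difference was 1.16 (SE 0.28, limma adjusted p = 0.0367). The call was narrow, since leaving out any single-positive array, or array 1 or 3 of the double-positive cells, ended it (adjusted p between 0.0563 and 0.146), with median centring (adjusted p = 0.0652) and over all probe sets (adjusted p = 0.0618). Mmp16, which spans the membrane, had signals of 5908, 5173 and 4589 in single-positive cells, against 2538, 3538 and 2536 in double-positive cells. Its groups did not overlap either, but the difference of 0.87 (SE 0.25, limma adjusted p = 0.0704) did not pass, except without double-positive array 2 (1.03, adjusted p = 0.0434) or with array weights (adjusted p = 0.0239), and its 3 tested probe sets gave 0.87, 1.05 and 2.72. Mmp14, the activator of the Mmp2 proenzyme, had signals of 1585, 2552 and 2416 in single-positive cells, against 1860, 5002 and 1004 in double-positive cells. The double-positive arrays alone spanned the whole range of the other group, and the Mmp14 difference was 0.02 (SE 0.50). Mmp24 had a difference of -0.15 (SE 0.41).

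The remaining MMPs tested did not pass. Mmp23, an unusual family member without the common binding domain, had signals of 15410.2, 11960 and 12797 in single-positive cells, against 20558, 22235 and 14168 in double-positive cells, with a difference of -0.48 (SE 0.21, limma adjusted p = 0.254). It passed without double-positive array 3 (-0.68, adjusted p = 0.0437). Mmp11, which is activated inside the cell by furin, had 0.34 (SE 0.38), and Mmp19 had 0.14 (SE 0.37). On the probe sets that stand for them, the groups overlapped for all 3 genes. A second tested Mmp23 probe set gave -0.47 with all double-positive arrays above, and did not pass over all probe sets (limma adjusted p = 0.269).

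**Figure D2:**
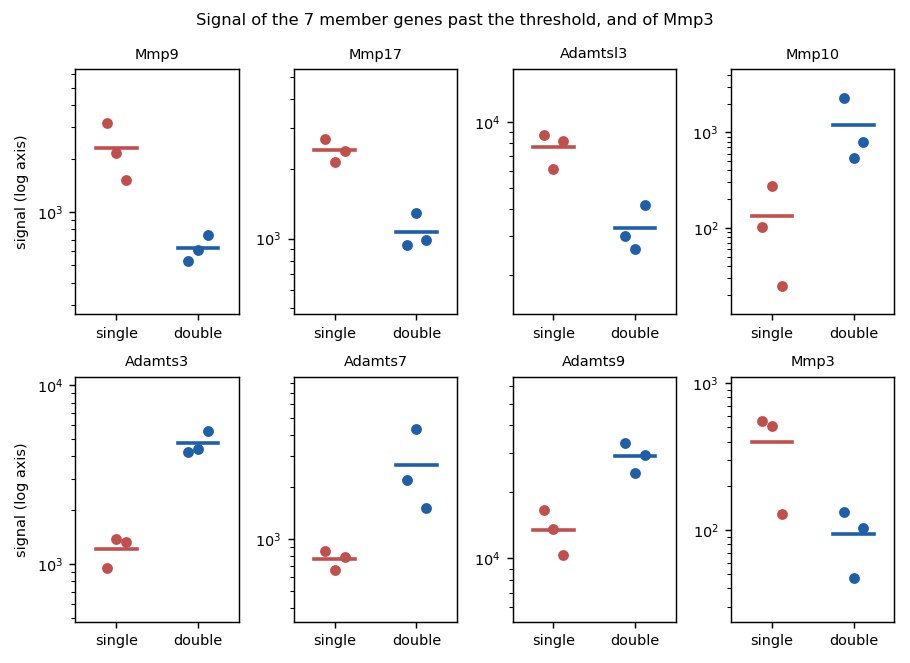
Signal on each array (log axis, arbitrary units; ticks differ between panels) of the 7 genes that passed and of Mmp3, with single-positive arrays on the left, double-positive arrays on the right and bars at group means (n = 3 each). The 2 groups share no range in the first 7 panels, while Mmp3 overlaps through 1 single-positive array at 129.

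Of 13 tested ADAMTS enzymes, 3 fell in single-positive cells and none was called higher, where 1.98% of all genes were called lower and 4.38% higher. Adamts3 removes the amino-terminal propeptide of procollagen. Its signal was 949, 1380 and 1325 in single-positive cells, against 4247, 4380.5 and 5578 in double-positive cells. The groups lay far apart, 3.89-fold in their means, and the difference was -1.94 (SE 0.27, limma adjusted p = 0.00224). This was the only one of the 7 calls that held in all 17 alternative fits, with adjusted p between 0.00105 and 0.0117. Its second probe set had 43.4, 37.7 and 87.6 in single-positive cells, against 195, 362 and 133 in double-positive cells, a difference of -1.60 that did not pass over all probe sets (adjusted p = 0.151).

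Adamts9 belongs to the proteoglycanases, which cut versican and aggrecan. Its signal was 16631, 13559 and 10341 in single-positive cells, against 33194, 24314 and 29429 in double-positive cells. All double-positive arrays were higher, and the difference was -1.11 (SE 0.21, limma adjusted p = 0.00957). A weaker probe set for Adamts9 that was also tested gave -0.03 with overlapping groups, and averaged over its probe sets the gene had -0.74 (adjusted p = 0.332). The Adamts9 call was also lost with median centring (adjusted p = 0.0648) and with no variance trend (adjusted p = 0.0679). Adamts7, which cuts cartilage oligomeric matrix protein and is known from vascular smooth muscle, had signals of 849, 666 and 788 in single-positive cells, against 2201, 4323 and 1519 in double-positive cells. The single-positive arrays were close together and the double-positive arrays spread, at a difference of -1.64 (SE 0.39, limma adjusted p = 0.0332). Leaving out any 1 array other than double-positive array 3 ended this call (adjusted p between 0.0667 and 0.125), as did the fits with no variance trend (adjusted p = 0.0634), with no filter (adjusted p = 0.0533) and over all probe sets (adjusted p = 0.0637).

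The other 10 tested ADAMTS genes did not pass. Among the proteoglycanases, Adamts1 had signals of 23017, 19718 and 21136 in single-positive cells, against 23778, 19380 and 23764 in double-positive cells. These values were nearly the same in both populations, and the difference was -0.06 (SE 0.16). Adamts5 had 0.57 (SE 0.27, limma adjusted p = 0.326), but only 3 of its 4 tested probe sets had this sign, and it passed without double-positive array 1 (0.90, adjusted p = 0.0464). Adamts4 had -0.49 (SE 0.26), Adamts20 had -0.18 (SE 0.40), Adamts8 had 1.16 (SE 0.56) and Adamts15 had 1.14 (SE 0.54). Only Adamts8 of these had groups that did not overlap, by 537 in the lowest single-positive array against 534 in the highest double-positive array. Outside this class, Adamts6 had 1.04 (SE 0.41, limma adjusted p = 0.215), and Adamts10, Adamts12 and Adamts16 lay between -0.30 and 0.14.

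ADAMTS-like proteins share the outer domains of the ADAMTS enzymes and lack the protease domain. Adamtsl3 had signals of 8743, 6108 and 8221 in single-positive cells, against 3016, 2640 and 4194 in double-positive cells. The groups did not overlap, and the difference was 1.23 (SE 0.26, limma adjusted p = 0.0176). It was called over all probe sets too (adjusted p = 0.0339), and was lost when array 1 (adjusted p = 0.0794) or 3 (adjusted p = 0.0912) of the single-positive cells or array 1 of the double-positive cells (adjusted p = 0.0552) was left out, with median centring (adjusted p = 0.0745) and with no variance trend (adjusted p = 0.0535). Adamtsl1 had signals of 6841, 5383 and 7958 in single-positive cells, against 2819, 2493 and 5364 in double-positive cells. The lowest single-positive array stood just above the highest double-positive one, and the difference of 0.98 (SE 0.31, limma adjusted p = 0.110) did not pass. All 3 of its tested probe sets were higher in single-positive cells, between 0.68 and 0.98, and the gene passed in 3 of its 17 alternatives, among them without double-positive array 3 (1.32, adjusted p = 0.0135) and with array weights (1.13, adjusted p = 0.0218). Adamtsl5 had -0.96 (SE 0.40, limma adjusted p = 0.234), Adamtsl2 had 0.45 (SE 0.36) and Adamtsl4 had -0.09 (SE 0.26).

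None of the 14 tested ADAM genes passed in limma, and 3 had an unadjusted p under 0.05 (Adam12, Adam22 and Adam23), where the share over all genes was 17.6%. Of the ADAMs with protease activity, all 8 tested had a positive difference, between 0.11 and 0.62, also after quantile normalization and median centring. For 2 of the 8, Adam12 and Adam33, the groups did not overlap, where the share over all genes with single-positive cells above was 11.9%. Adam10, the main sheddase of Notch receptors, had signals of 17703, 20706 and 20275 in single-positive cells, against 16263, 11156 and 23475 in double-positive cells. Adam17, which releases tumour necrosis factor and ligands of the EGF receptor, had 5760, 4120 and 5266 in single-positive cells, against 4240, 4394 and 4369 in double-positive cells. Both overlapped on these probe sets, with differences of 0.27 (SE 0.25) and 0.21 (SE 0.22). The 3 tested probe sets of Adam10 lay between 0.27 and 1.06. The groups did not overlap at that of 1.06, which did not pass over all probe sets (limma adjusted p = 0.217). Adam12, a sheddase of mesenchyme and developing muscle, had 11433, 16286 and 11239 in single-positive cells, against 8672, 9942 and 8973 in double-positive cells, a difference of 0.48 (SE 0.20, limma adjusted p = 0.249). Adam33, Adam9, Adam19 and Adam15 had 0.56, 0.22, 0.18 and 0.11, and Adam8, which leukocytes are known to express, had 0.62 (SE 0.48). The tested probe sets of Adam15 disagreed in sign.

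The 3 ADAMs without a working protease site, Adam11, Adam22 and Adam23, are known as adhesion and receptor proteins of the nervous system. Adam22 and Adam23, which both bind secreted Lgi proteins, had differences of opposite sign. Adam22 signal was 3275, 2622 and 3002 in single-positive cells, against 49.2, 946 and 1875 in double-positive cells. The single-positive arrays lay close together and above all double-positive arrays, which differed widely among themselves. The difference was 2.53 (SE 0.94, limma adjusted p = 0.178), and it passed only without double-positive array 3 (3.47, adjusted p = 0.0385) and with array weights (3.83, adjusted p = 0.0206) among the 17 alternatives. A weaker tested probe set for Adam22 gave a smaller difference of 0.52, which did not pass over all probe sets (limma adjusted p = 0.672). Adam23 signal was 1832, 2133 and 2931 in single-positive cells, against 7008, 3317 and 10278 in double-positive cells. Here all double-positive arrays were higher. The difference of -1.45 (SE 0.39, limma adjusted p = 0.0566) narrowly missed the threshold and passed in 5 of the 17 alternatives. All 3 tested probe sets of Adam23 had the same sign, between -1.45 and -0.25. Without double-positive array 2 the Adam23 difference was -1.90 (adjusted p = 0.00883). Adam11 had -0.33 (SE 0.48).

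Of the other ADAMs, most of which are known from testis, 3 of 16 were tested. Adam5 had signals of 170.2, 387 and 555 in single-positive cells, against 999, 432 and 890.5 in double-positive cells, a difference of -1.07 (SE 0.49, limma adjusted p = 0.301) with overlapping groups. Adam4 and Adam1b had 0.16 (SE 0.39) and 0.11 (SE 0.54), and the difference of Adam1b turned negative when array 3 of the single-positive (-0.04) or of the double-positive cells (-0.45) was left out. None of the 3 had groups that stood apart.

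All 4 TIMP genes had lower mean values in single-positive cells, and none of the 4 passed in limma. The unadjusted p was under 0.05 for 1 of them, Timp1. Over all genes tested, 6.37% were called and 17.6% had an unadjusted p under 0.05. Timp1 signal was 3662, 3726 and 2951 in single-positive cells, against 6305, 5816 and 4497 in double-positive cells. The groups did not overlap, and the difference was -0.67 (SE 0.24, limma adjusted p = 0.154). Among its 17 alternatives the adjusted p lay between 0.0443, with array weights, and 0.417. Timp2, which also takes part in activating the Mmp2 proenzyme, had 47298, 50338 and 42028 in single-positive cells, against 55634, 57112 and 45882 in double-positive cells. Timp3, the TIMP that binds to the matrix, had 9441, 10874 and 9788 in single-positive cells, against 11813, 12307 and 9789 in double-positive cells. Their groups overlapped, with small differences of -0.18 (SE 0.13) and -0.17 (SE 0.18). Timp4 had 236, 267 and 119 in single-positive cells, against 662, 74.6 and 345 in double-positive cells, a difference of -0.40 (SE 0.66) that became 0.21 without double-positive array 1. All 13 tested TIMP probe sets had a negative difference, between -0.99 and -0.16, and probe sets of a gene are not independent. The 4 genes kept a negative difference after quantile normalization and median centring.

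**Figure D3:**
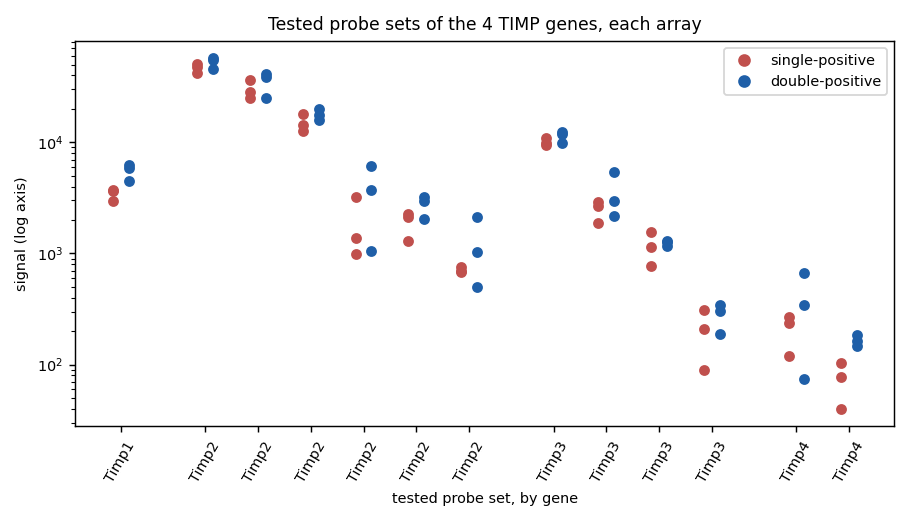
Signal on each array (log axis, arbitrary units) of the 13 tested TIMP probe sets, grouped by gene and ordered by brightness, with single-positive arrays left and double-positive arrays right at each probe set. The 2 groups overlap at 11 of the 13 probe sets and stand apart at that of Timp1 and at 1 of Timp4.

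Probe sets of the same gene were compared to show how far a value rests on 1 of them. Of the 124 probe sets, 90 were tested over all probe sets, and 3 were higher and 2 lower in single-positive cells. Over all 27022 probe sets tested, 3.42% were called, with 2.42% higher and 1.01% lower. The 5 were both probe sets of Mmp9 and 1 each of Adamtsl3, Adamts3 and Adamts9. Of 27 genes with more than 1 tested probe set, 3 had probe sets of both signs (Adam15, Adamts5 and Adamts16), and no gene was called in both directions.

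**Figure D4:**
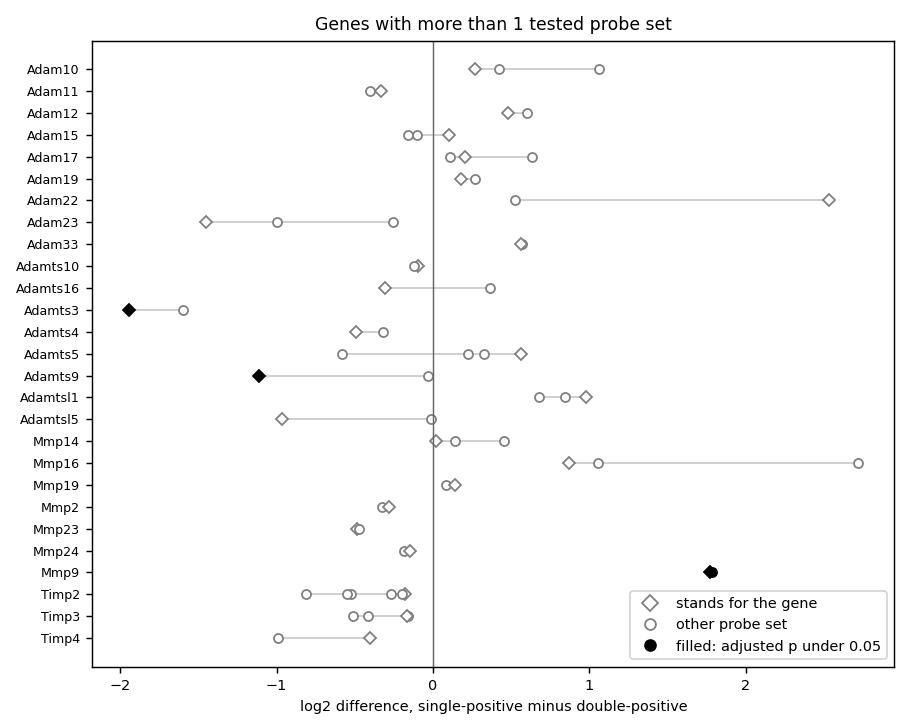
Log2 difference (horizontal axis, single-positive minus double-positive) of each tested probe set, for the 27 genes with more than 1; diamonds mark the probe set that stands for the gene and filled symbols those that passed over all probe sets. Both Mmp9 symbols are filled and lie at 1.77 and 1.79, while those of Adam15, Adamts5 and Adamts16 fall on both sides of 0.

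Genes that act on these enzymes were read next. Of 24 tested activators and regulators, such as the activating protease Furin, the Adam17 partners Rhbdf1 and Rhbdf2, the tetraspanins that carry Adam10, and the membrane-bound MMP inhibitor Reck, none passed in limma and 2 had an unadjusted p under 0.05. Over all genes tested, 6.37% were called and 17.6% had an unadjusted p under 0.05. The median difference of the 24 was -0.10, against -0.02 over all genes. Reck signal was 17486, 14313 and 15245 in single-positive cells, against 17986, 14983 and 22690.0 in double-positive cells. The 2 with an unadjusted p under 0.05 were the tetraspanin Tspan5 (-0.80, SE 0.24, limma adjusted p = 0.0878) and Plau, the urokinase that starts the plasmin cascade (-2.85, SE 1.06, limma adjusted p = 0.179). Plau ranged from 64.0 to 2337 in single-positive cells, against 843 to 4885 in double-positive cells, and overlapped.

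Among 21 other extracellular proteases tested, 3 were higher and 5 lower in single-positive cells, where the shares over all genes were 4.38% and 1.98%. The largest of these differences was in Adamdec1, an ADAM-related secreted protease whose symbol falls outside the naming rule. Its signal was 6618, 7641 and 6859 in single-positive cells, against 62545, 59093 and 46031 in double-positive cells, a difference of -2.97 (SE 0.17, limma adjusted p = 7.61e-05). Prss35, a serine protease-like protein, and the peptidases Enpep and Ece1, which process angiotensins and endothelins, had -2.45, -1.89 and -1.77. Htra1, a secreted serine protease, had -0.80 (limma adjusted p = 0.0109). The higher genes were the lysosomal cysteine protease Ctss of phagocytes (2.12) and the membrane serine proteases Tmprss2 (2.69) and St14 (1.74).

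Substrates of the enzymes went both ways. Of 33 tested ADAM substrates 5 were higher and 2 lower, and of 28 tested ADAMTS and MMP substrates 2 were higher and 1 lower, where the shares over all genes were 4.38% and 1.98%. The Notch ligands Jag1 and Dll1, both cut by Adam10, had differences of opposite sign, 1.37 (SE 0.22) and -2.06 (SE 0.40), and both passed. Vcam1, an adhesion receptor shed by Adam17, had -1.25 (SE 0.13, limma adjusted p = 0.000615). The other 4, Cdh1, Csf1r, Cdh5 and L1cam (differences 3.21, 2.68, 2.41 and 2.16), are also among the markers of other cell types below. Among the ADAMTS and MMP substrates, Reln (2.07) and Vwf (1.92), a glycoprotein of endothelium, were higher and Tnc, an adhesive matrix protein, was lower (-1.83, SE 0.24, limma adjusted p = 0.00156).

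Markers of other cell types moved between the same populations. Over all genes tested, 4.38% were called higher and 1.98% lower in single-positive cells. Of 13 tested leukocyte markers all had higher values in single-positive cells and 12 passed, and their summed signal on 14 probe sets ran between 81954 and 112088 in single-positive arrays, against 9805 and 19125 in double-positive arrays. Mmp9 and Ctss were higher in the same arrays, as were the summed smooth muscle, urothelial, endothelial and nerve markers, and a link between them was not tested. None of the leukocyte markers was listed at 0, and Itgam was below the filter level in both groups. Neutrophils are a known source of Mmp9 and Mmp8. Of their 7 markers on the array, S100a8, S100a9, Camp, Ltf and Elane were below the filter level in both groups. Of the 2 tested, Csf3r was higher in single-positive cells (1.85, limma adjusted p = 0.0406). The other, Ngp, had a negative difference and did not pass (-0.24, SE 0.41, limma adjusted p = 0.845). Summed signal of the 7 ran between 383 and 492 in single-positive arrays, against 258 and 742 in double-positive arrays.

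Urothelial markers passed in 7 of 12 tested genes, all higher in single-positive cells, with summed signal between 20623 and 37127 in single-positive arrays, against 4716 and 8254 in double-positive arrays. Endothelial markers passed in 4 of 8 (29951 to 40476, against 5713 to 8582) and markers of nerve and Schwann cells in 3 of 6 (8781 to 10055, against 1184 to 2464). Those that passed were again all higher in single-positive cells, where 4.38% of all genes were called higher. Of the 6 tested nerve and Schwann markers, 5 had a positive difference and 1 a negative one, Sox10 (-0.25, SE 0.54). Fibroblast markers passed in 0 of 6 by limma (2 at an unadjusted p under 0.05, where the share over all genes was 17.6%). Their sums were 266692 to 310690.0 in single-positive arrays, against 262916 to 365682 in double-positive arrays. Mesothelial markers passed in 0 of 2 by limma (0 at an unadjusted p under 0.05), with 661 to 959 in single-positive arrays, against 551 to 2651 in double-positive arrays. The part of these cell types in the differences of Mmp9, Mmp17, Adamtsl3 and the other genes was not tested.

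**Figure D5:**
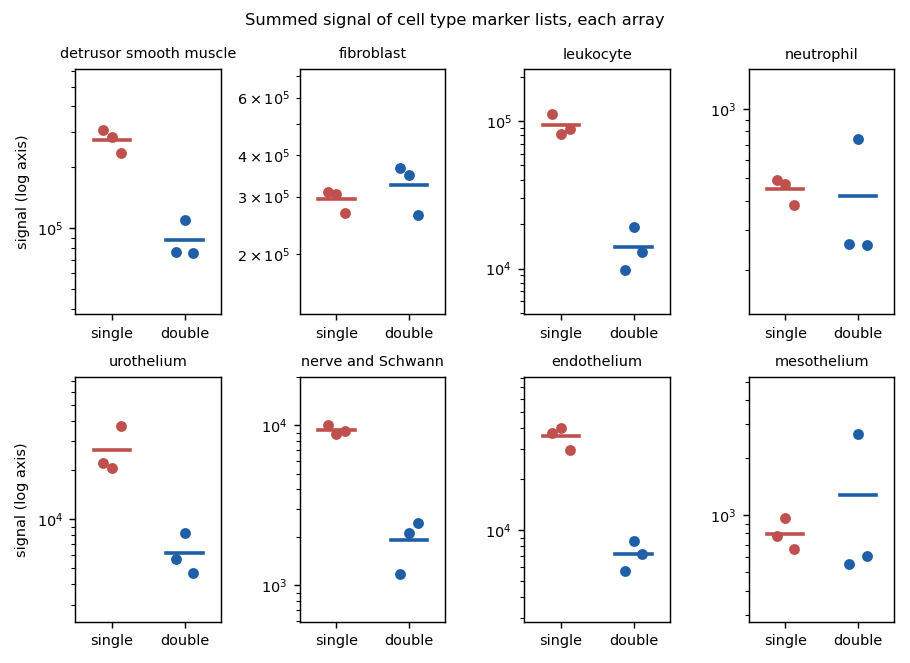
Summed signal of each cell type marker list on each array (log axis, arbitrary units; ticks differ between panels), single-positive arrays on the left and double-positive arrays on the right, with bars at group means (n = 3 each). Smooth muscle, leukocyte, urothelial, nerve and endothelial sums do not overlap between the groups and are higher in single-positive arrays, while fibroblast, neutrophil and mesothelial sums overlap.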

How the data were processed

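Total RNA of sorted cells was measured on 6 arrays, 3 a group, grouped by the reporter state in the sample titles. Each probe set has 1 deposited intensity per array, on a linear scale. Per the submitters' processing notes GCOS was used; no version, algorithm or target is stated there. With 2% trimmed from both tails, all 6 arrays had a mean of 1500.01, so the authors had scaled the deposited intensities to a common level, which hides any difference in total RNA. Amplification in 2 rounds favours the 3' ends of transcripts, so probe sets far from them can lose signal.

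Gene names come from the platform annotation, for probe sets with 1 symbol only (34945 of 45037, without 64 controls). All 70 symbols equalled the RefSeq symbol of their Entrez identifier in GRCm38.p6, and the array table names no build. The log2 scale used 25.042 as the offset added to each signal (20% of all values were lower), without rescaling, since array medians differed 1.36-fold, under the limit of 1.5. The comparison used limma 3.58.1 under R 4.3.3 (variance trend, two-sided, Benjamini-Hochberg over all genes tested, threshold 0.05). A second fit covered 27022 probe sets above the same level. The procedure was run on simulated data with independent noise for each gene. Such data hold no array effects or mixed cell types, so that run cannot speak to these limits. Genes named are those called in either fit, the TIMPs, the 3 of smallest p in each class and, of other lists, the called members, at most the 6 of smallest p in each direction; further genes were named after their values were seen. The AP-1 and TATA motifs were also chosen then. The genes, lists, classes and tests were chosen with earlier results of these data known. Alternatives covered scaling, offset, filter, choice of probe set, variance model, a replicate-number block and omission of single arrays. Any pair of arrays shared at most 13 exactly equal values, and the labels give no batch.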

Additional observations from a re-analysis of the deposited data

How the results depend on the processing

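Directions of the 7 genes that passed held in all 119 alternative fits, and 90 of these kept the call while 29 did not. Because the groups of these 7 did not overlap, a sign could turn only where scaling or the choice of probe set changed. The held directions therefore say little about the other alternatives. Of the 27 other genes named by rule, 10 of 448 alternative fits turned the sign and 16 passed. The turned value of Adamts16, averaged over probe sets, was 0.030. With 1 array left out, the differences ran from -0.57 to 0.12 for Adam11, -0.45 to 0.19 for Adam1b, -0.014 to 0.46 for Mmp19, -0.37 to 0.041 for Mmp24, -0.56 to 0.27 for Mmp7 and -1.18 to 0.21 for Timp4.

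The 7 genes called (3 higher, 4 lower) numbered 4 with median centring (1 higher), 3 with no variance trend (1 lower) and 12 with array weights (6 higher), and 2 were lower with no filter. Over all genes tested the share called moved as well, from 6.37% to 5.16% with median centring and 4.69% with no variance trend. It was 9.99% with array weights and 4.03% with no filter. The 5 probe sets called (3 higher, 2 lower) numbered 2 with median centring (0 higher), 3 with no filter (1 higher), 8 with the filter at the 60th percentile (4 lower), 2 with no variance trend (1 higher, 1 lower) and 13 with array weights (8 higher, 5 lower). Activators and regulators had 1 call averaged over probe sets and 1 with array weights, and ADAMTS and MMP substrates had 1 averaged over probe sets. The causes were not tested, except that fewer or more genes enter where the filter changes. Leaving out 1 array gave 2 to 9 genes (0 to 4 higher, 2 to 5 lower), 1 to 6 probe sets (0 to 3 higher, 1 to 3 lower), 14 to 19 list genes (18 with all arrays), 6 to 8 ADAM substrates, 1 to 3 ADAMTS and MMP substrates, 0 to 1 regulators and 6 to 8 other proteases. The share called over all genes ran from 3.46% to 8.04% in these fits.

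Same-numbered arrays of the groups did not clearly deviate together (correlations 0.09, 0.03 and -0.07), and differently numbered arrays gave -0.13 to 0.13. With 3 arrays a group, these values cannot settle whether the replicate number pairs arrays. With the replicate block 8 genes passed, 3 probe sets passed (1 higher), Mmp17 missed the threshold (adjusted p = 0.0613), and Adamtsl1 (adjusted p = 0.0446) and Adam23 (adjusted p = 0.0182) passed. With that block 7.53% of all genes tested were called. Only 3 arrays a group and signals near the filter level, as for Mmp10 and Mmp3, limit the precision.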
